A study of Mus musculus with 288 samples.

Results

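Single mouse embryonic stem cells kept in 2i with LIF were ranked by their own Nanog reads, and 2 groups were chosen by that measured value: the 30 cells with the most Nanog and the 30 with the least. These 60 cells came from the 90 cells labelled D0 that passed the limits on reads, genes and mitochondrial share, out of 96 D0 wells and 288 wells in the series. The groups are therefore ranges of a measured value and not conditions of the study, and Nanog itself is given only as a description. Between the groups lay the other 30 D0 cells, called the middle cells here.

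The D0 cells were E14 stem cells of the 129/Ola strain, for which the labels name no genetic change. They were taken at 0 h, before any change of medium, from N2B27 with PD0325901 (an inhibitor of MEK), CHIR99021 (an inhibitor of GSK3) and LIF. Cells labelled D1 (24 h) and D2 (48 h) had been moved to serum with LIF, and 50 and 93 of them passed. Every cell was flow-sorted, treated with a GpC methyltransferase, lysed, and its mRNA separated from its DNA, so all groups share that treatment. Nothing in the labels marks more than 1 culture and 1 plate for a label, so cells are not replicates of a condition, no p-value is given, and time, plate and sequencing cannot be told apart between labels.

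Nanog is a homeodomain transcription factor that works with Oct4 (the product of Pou5f1) and Sox2 to hold stem cells in the pluripotent state. In serum its level is known to vary widely from cell to cell, with cells that have little Nanog being more prone to differentiate. Blocking MEK and GSK3 is known to make Nanog more even and to hold cells in the naive state, which resembles the inner cell mass before implantation.

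The gene lies on chromosome 6, at chr6:122707489-122714633 on the plus strand of GRCm38. The 250 bases before its start, chr6:122707239-122707488, are shown because they hold the paired element that Oct4 and Sox2 are known to bind, and the levels of those factors are compared between the groups. The sequence is from RefSeq (GRCm38.p6), 5′ to 3′, with TTTGCAT (Oct) and ACAATG (Sox) in capitals.
Nanog upstream: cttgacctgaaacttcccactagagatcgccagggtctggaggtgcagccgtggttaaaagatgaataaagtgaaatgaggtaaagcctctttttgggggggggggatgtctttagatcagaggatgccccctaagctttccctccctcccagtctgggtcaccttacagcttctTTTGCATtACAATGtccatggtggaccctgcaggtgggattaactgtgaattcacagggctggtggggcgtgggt
The Oct motif begins 75 bases before the start and the Sox motif 67, with 1 base between them. Searched on both strands, the Oct motif occurs in 4.12% and the Sox motif in 10.7% of 32851 windows of this length before mouse genes. The motifs do not overlap each other. A match describes the letters and not a bound site.

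Nanog ranged from 0 to 1178 CPM over the 90 cells (reads of the gene per 1000000 reads of the cell). In the Nanog-high cells it lay between 548 and 1178 CPM with a median of 707, in the middle cells between 381 and 543 with a median of 445, and in the Nanog-low cells between 0 and 373 with a median of 301. There was no gap at either group limit: the cells at ranks 30 and 31 held 547.7 and 543.2 CPM, and those at ranks 60 and 61 held 381.3 and 373.1. The 95% Poisson intervals of 9 Nanog-high and 6 middle cells reached across the upper limit, and those of 4 middle and 9 Nanog-low cells across the lower one. Such intervals, here and below, cover counting error at most, and since mates were probably counted one by one (most nonzero counts were even) they are too narrow, so more cells than these may reach across. At the bottom, the 4 cells with the least Nanog (0, 57.8, 84.1 and 132.8 CPM) were spaced wider than these intervals. The means, 739 ± 180 (SD over cells, n = 30) and 271 ± 102, differed 2.73-fold. Only 1 cell held no Nanog read, and 29 of the 30 Nanog-low cells held at least 1. The Nanog pseudogenes took 1 read in all against 95820 for Nanog.

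**Figure D1:**
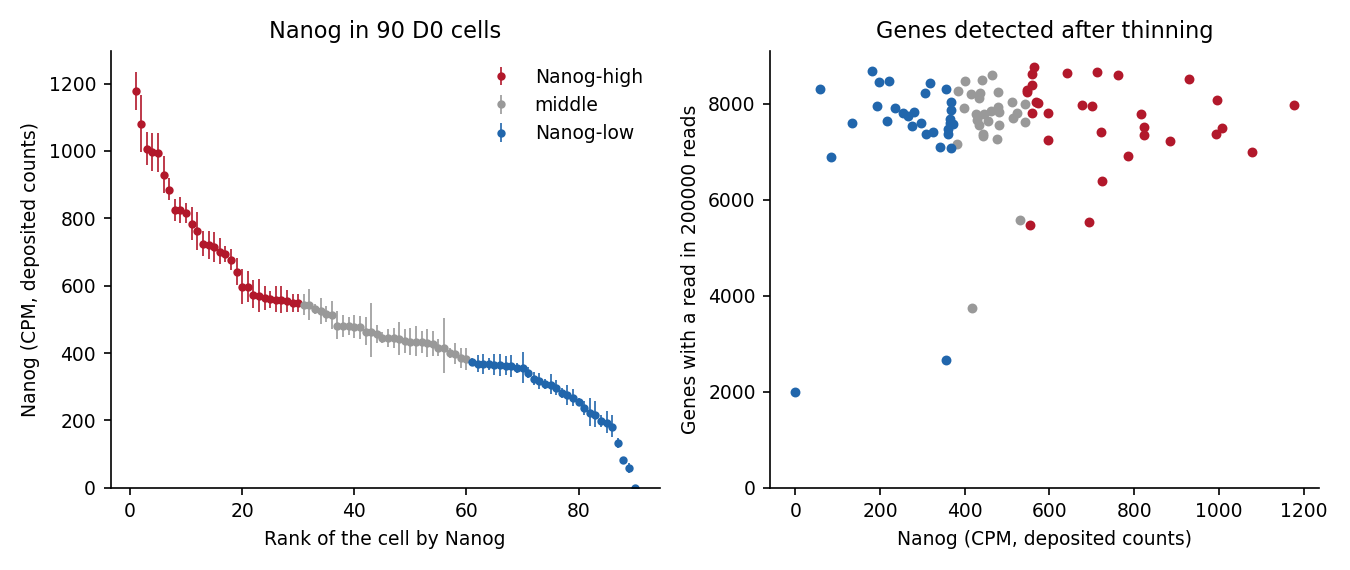
Left, Nanog in each of the 90 D0 cells in CPM of the deposited counts against the cell's rank, with 95% Poisson intervals; right, genes with a read in 200000 randomly kept reads per cell against Nanog. Nanog passes both group limits without a gap and reaches 0 CPM in 1 cell, and the number of genes detected shows no trend with it, apart from a few cells with few genes, the lowest of them with no Nanog read.

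Sequencing depth had almost no rank correlation with Nanog. The median number of reads was 1590584 in Nanog-high cells (602645 to 4849844) and 1955951 in Nanog-low cells (518391 to 10073010), and Spearman's rho of reads with Nanog was -0.05 over the 90 cells. To remove depth, each cell was thinned to 200000 reads, so that 1 read is worth 5 CPM, and the levels below are thinned CPM except where Nanog is ranked. After thinning, Nanog-high cells held 5478 to 8768 genes (median 7885) and Nanog-low cells 1992 to 8687 (median 7668.5), with a rho of 0.01 with Nanog. The median share of mitochondrial reads was 4.53% and 4.35%, and that of ribosomal protein genes 5.24% and 5.4%. Of the Nanog-high and Nanog-low cells 16 and 14 lay in plate columns 1 to 6, but single rows and columns were uneven: column 1 held 0 and 5, column 5 held 7 and 1, column 12 held 5 and 0, row B held 2 and 7 and row D held 6 and 0. The part of this placement in the differences was not tested beyond the columns 1 to 6 and 7 to 12.

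A pair of Nanog-low cells stood apart. They held 2342 and 3875 genes before thinning and 18.5% and 15.7% of their reads in ribosomal protein genes, and their profiles correlated more with the mean D1 and D2 cell than with the other D0 cells. The first of them is the cell with no Nanog read. The counts and values below that change most without this pair are given both ways. A further 2 Nanog-low cells held 1270 and 1847 reads of Hprt and Y-linked genes, against 2 to 162 in 9 other D0 cells and none in the rest. Those 2 cells also held 1865 and 715 CPM of Dazl and all the reads of the Y-linked gene Eif2s3y, which had a mean of 32 CPM in Nanog-low and 0 in Nanog-high cells. Before thinning, reads of Sox2 and Zfp42 were found in 30 of 30 cells of each group. Those of Pou5f1 were found in 30 Nanog-high and 29 Nanog-low cells, and of Esrrb in 30 and 28. After thinning, Sox2 had reads in 28 cells of each group. The cells without Pou5f1 or Esrrb reads were the pair that stood apart. The cell with no Nanog read held neither, and the other held no Esrrb. By these markers the label of embryonic stem cell held in both groups apart from that pair.

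Over the rest of the transcriptome the groups differed little. Of 54232 genes in the table, 8732 other than Nanog had a mean of at least 10 CPM over the 90 cells and were compared, as the log2 ratio of the group means after adding 10 CPM to each, which understates the change of low genes. The median log2 ratio of Nanog-high over Nanog-low cells was 0.01, and the 5th and 95th percentiles were -0.66 and 0.61. Of the genes compared, 64 (0.733%) were at least 2-fold higher and 114 (1.31%) at least 2-fold lower in Nanog-high cells. By any amount, 51.3% were higher and 48.2% lower. Without the pair of cells that stood apart, 48 were at least 2-fold higher and 95 at least 2-fold lower.

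Genes past 2-fold on one side of the plate were past it on the other in a small share of cases. In plate columns 1 to 6, with 16 Nanog-high and 14 Nanog-low cells, 282 genes were at least 2-fold higher in Nanog-high cells. In columns 7 to 12, which hold other D0 cells, 141 of those 282 genes (50%) were higher, against 49% of all genes compared. The median log2 ratio of the 282 genes there was 0.00. Of the 306 genes at least 2-fold lower in columns 1 to 6, 168 (54.9%) were lower in columns 7 to 12, against 50.8% of all genes. Over all 8732 genes, the log2 ratios of the 2 sets of wells had a Spearman's rho of 0.05, a value across genes, which are not independent of each other. Genes past 2-fold the same way in both sets numbered 39, which is 6.63% of the 588 past 2-fold in columns 1 to 6 and 7.36% of the 530 in columns 7 to 12. Taken by direction, 5.67% and 7.52% of the genes at least 2-fold higher and lower in columns 1 to 6 were so in columns 7 to 12, against 2.22% and 3.85% of all genes. Among the 2351 genes with a mean of at least 100 CPM the rho was 0.15. Of those, 9 of 16 genes at least 2-fold higher in columns 1 to 6 were higher in columns 7 to 12 (51.6% of the 2351 were), and 27 of 39 at least 2-fold lower were lower there (48.4%).

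**Figure D2:**
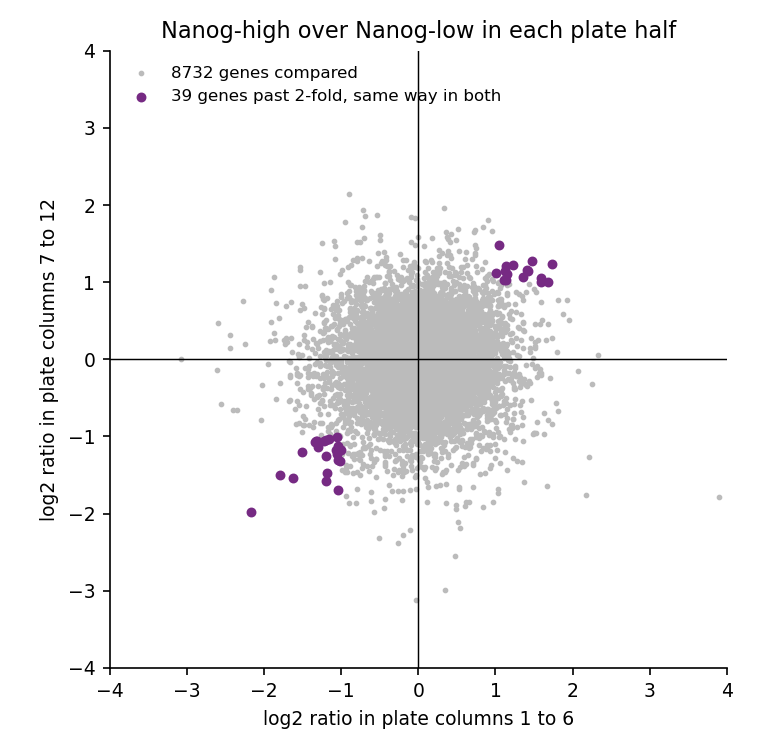
Each point is 1 of 8732 genes, placed by its log2 ratio of Nanog-high over Nanog-low cells in plate columns 1 to 6 (horizontal) and in columns 7 to 12 (vertical). The cloud is round (rho 0.05), and the 39 coloured genes are those past 2-fold the same way on both sides.

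The naive pluripotency transcription factors, which hold the inner cell mass program together with Nanog, differed little. Of 14 listed, 13 reached the limit of 10 CPM (Gbx2 did not), 10 were higher (51.3% of all genes were) and 3 lower in Nanog-high cells, and none reached 2-fold, with a median log2 ratio of 0.16 against 0.01 for all genes. Without the pair of cells that stood apart, 9 of 13 were higher and the median was 0.09. The summed level of the list was 2300 to 6180 CPM in Nanog-high cells (median 4272.5) and 1090 to 5760 in Nanog-low cells (median 3725), so the groups overlapped over most of their range.

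Zfp42 (Rex1), a zinc finger factor used as a marker of the naive state, was among the more even of these genes. It ranged from 460 to 1805 CPM (median 1027.5) in Nanog-high cells and from 215 to 1595 (median 750) in Nanog-low cells. The cells overlapped widely, but 23 of 30 Nanog-high cells lay above the Nanog-low median. The log2 ratio was 0.32, with 0.35 in plate columns 1 to 6 and 0.30 in columns 7 to 12, and its summed reads gave a ratio of 1.26 (95% counting interval 1.21 to 1.30).

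Tfcp2l1, a naive factor downstream of LIF and STAT3, was the most abundant of the list. It ranged from 600 to 3040 CPM (median 1615) in Nanog-high and from 235 to 3135 (median 1390) in Nanog-low cells, a log2 ratio of 0.16. Esrrb, an orphan nuclear receptor known as a direct target of Nanog, ranged from 5 to 420 CPM (median 230) against 0 to 545 (median 195). Its log2 ratio was 0.14 over all wells but 0.47 in columns 1 to 6 and -0.19 in columns 7 to 12, so its direction was not the same in both sets. The rho of Esrrb with Nanog over the 90 cells was 0.01. Of the 13 factors compared, 12 had a rho above 0 and 1 below, and that of Zfp42 was 0.28. Over all genes the median rho was 0.03, and the 5th and 95th percentiles were -0.16 and 0.22.

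The Kruppel-like factors, which sit beside Nanog in the naive network, showed no common direction. Klf2 had a mean of 118.5 CPM in Nanog-high and 116.8 in Nanog-low cells, Klf4 of 80.3 and 89, and Klf5 of 205.7 and 195.2. Their log2 ratios were 0.02, -0.13 and 0.07. The widest ratios of the list belonged to Nr0b1 (Dax1), a nuclear receptor that binds Oct4, at 0.48, and Dppa3 (Stella), a maternal factor that protects DNA methylation in the zygote, at 0.41. For both, one side of the plate carried the difference: Nr0b1 was at 0.85 and -0.18 and Dppa3 at 0.00 and 0.77 in columns 1 to 6 and 7 to 12.

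Of the core factors with reads in nearly all cells, Pou5f1 had the widest ratio upward. It ranged from 185 to 855 CPM (median 522.5) in Nanog-high and from 0 to 855 (median 447.5) in Nanog-low cells, a log2 ratio of 0.38 (0.37 and 0.33 by plate side). Its partner Sox2 lay the other way, with a median of 52.5 CPM against 60 and a log2 ratio of -0.22. Of the 8 core genes, 3 were higher and 5 lower, against 51.3% and 48.2% of all genes, with a median of -0.09. Lin28a, an RNA-binding protein that blocks let-7 processing, had a ratio of 0.67 from a low level (27.5 against 13.5 CPM). Sall1, a zinc finger partner of Nanog, had one of -0.59 (83.5 against 130.7 CPM), with -0.09 and -0.82 by plate side.

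**Figure D3:**
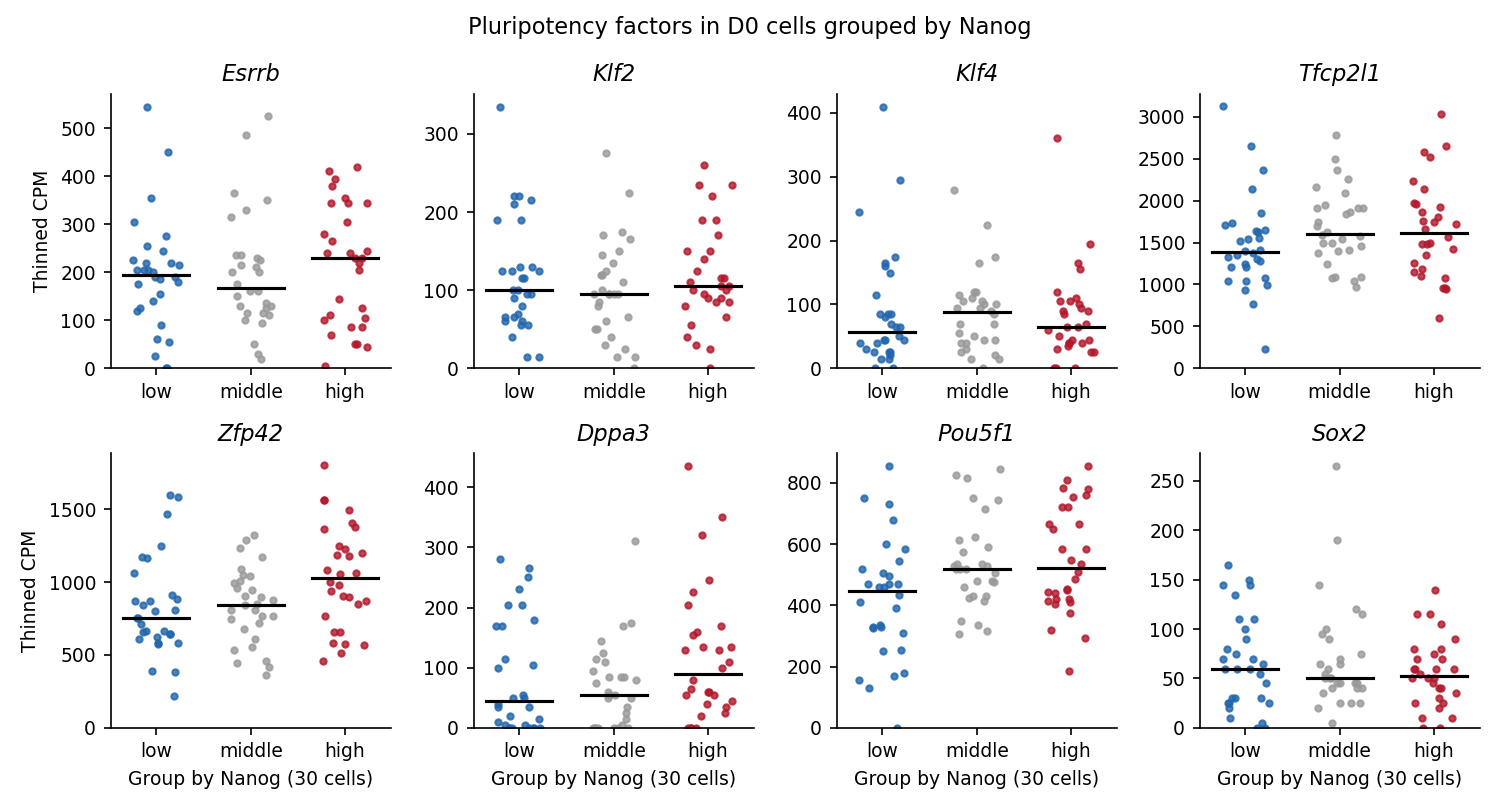
Thinned CPM of 8 pluripotency factors in each of the 30 Nanog-low, 30 middle and 30 Nanog-high D0 cells, with the median of each group as a bar. The groups overlap over most of their range in every panel (Zfp42, 215 to 1595 in Nanog-low and 460 to 1805 in Nanog-high cells).

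Of 14 other pluripotency-associated genes 11 were higher, against 51.3% of all genes, none of them 2-fold, with a median of 0.14 (0.09 without the pair that stood apart). Spp1, a secreted phosphoprotein expressed in the inner cell mass, was the widest upward, ranging from 565 to 5270 CPM (median 1992.5) against 0 to 3090 (median 1460), a log2 ratio of 0.53. Fgf4, the growth factor through which stem cells activate ERK in themselves, had means of 204.5 and 162.7 CPM and a ratio of 0.31. The widest downward was Manba, a lysosomal mannosidase, at -0.85, from reads in 14 and 10 cells.

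Most genes of other states were below the limit of 10 CPM. Of 14 formative and primed genes, 3 could be compared: Otx2, a factor of the exit from the naive state, had 13.2 against 17.3 CPM, and Dnmt3b 112.0 against 107.2. Krt18, a keratin, had a ratio of -1.55 that rested on 1 Nanog-low cell with 765 CPM, and without it the ratio was -0.25. Fgf5 and Sox3 had no read in any D0 cell. Of 18 primitive endoderm genes, 3 basement membrane and matrix genes could be compared (Lama1 -0.70, Lamc1 -0.09, Sparc 0.25). Lamc1 was at 0.25 and -0.41 by plate side, and Gata6, Gata4 and Sox17 were below the limit. The summed level of that list was 140 to 1165 CPM in Nanog-high and 0 to 1025 in Nanog-low cells. The trophectoderm list gave 3 genes, Krt8 at 0.70, Tfap2a at -0.54 (-0.05 without the pair that stood apart) and Tead4 at -0.07, with Cdx2 below the limit. For mesoderm and 2-cell-like genes none of 7 and 17 reached the limit, and 15 of the 17 had no read. Of the fibroblast list only Vim was compared (-0.23, with 0.38 and -0.93 by plate side). Of the ectoderm list only Tubb3 was (-0.46, with -0.89 and -0.02).

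The genes of the signalling pathways set by the medium had no common direction. Their counts of higher genes stand against 51.3% of all genes, or 49.6% without the pair of cells that stood apart. Of the ERK target and feedback genes, held low by the MEK inhibitor, 7 of 18 could be compared, 3 higher and 3 lower (3 and 4 without the pair), with Etv5 at 346.7 against 302.5 CPM. Of the Wnt and beta-catenin list, which holds Tcf7l1 beside target genes, 4 of 8 were higher. The ratios ran from Cdx1 at 0.84 (38 against 16.8 CPM) to Sp5 at -0.46 (15.0 against 24.5). Of 12 LIF and STAT3 genes 5 were higher, and 2 without the pair that stood apart, from Sgk1 at 0.29 to Socs2, a feedback inhibitor, at -0.41. Among Nodal genes 4 of 6 and among BMP and Id genes 2 of 4 were higher (3 of 4 without the pair). Id2 was at -0.83, with 575 CPM in 1 of the cells that stood apart, and at 0.70 without that cell.

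Of 8 DNA methylation and TET genes 5 were higher, and 4 without the pair that stood apart, against 51.3% of all genes. The widest of them, Apobec1, is described among the neighbours of Nanog below. Uhrf1, which brings Dnmt1 to replicating DNA, ranged from 195 to 1460 CPM (median 977.5) in Nanog-high and from 0 to 1740 (median 720) in Nanog-low cells, a log2 ratio of 0.32. Dnmt1, the maintenance methyltransferase, was at -0.44, with medians of 145 and 175 CPM. Tet2, which oxidises methylcytosine, was at 0.29 and Tet1 at -0.13.

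The genes beside Nanog on chromosome 6 were compared next. All 5 of the listed neighbours that could be compared were higher over all wells (51.3% of all genes were), 2 of them at least 2-fold, but by plate side 5 were higher in columns 1 to 6 and 3 in columns 7 to 12, where 53.7% and 49% of all genes were. That difference between the sides was not tested. Necap1, an adaptor-binding protein of endocytosis 160 kb downstream, ranged from 0 to 480 CPM (median 160) against 0 to 220 (median 67.5), a log2 ratio of 1.08 with 1.11 and 1.03 by plate side, and 0.97 without 1 Nanog-high cell. Apobec1, a cytidine deaminase 105 kb upstream, had reads in 15 Nanog-high and 8 Nanog-low cells and a ratio of 1.04, which was 0.64 without 1 Nanog-high cell. Without the pair that stood apart, 4 of 5 were higher, and neither of these genes reached 2-fold, at 0.99 each. The glucose transporter Slc2a3, which lies nearest at 13.2 kb, was at 0.08 (0.63 and -0.39 by plate side), and Gdf3 at 0.22 (0.67 and -0.11). Within 1 Mb 7 of 8 compared genes were higher (median 0.32), with 7 in columns 1 to 6 and 4 in columns 7 to 12, within 5 Mb 35 of 53 (median 0.18), and over the whole chromosome 209 of 393 (median 0.04).

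Most p53 targets had a lower mean in Nanog-high cells, but their ranks followed Nanog in no common direction. p53 is known to repress Nanog in stem cells under DNA damage, and its targets arrest the cycle or promote cell death. Of 13 listed, 10 could be compared, of which 8 were lower (80%, against 48.2% of all genes), 1 of them at least 2-fold, with a median log2 ratio of -0.25. Without the pair that stood apart the count was the same and the median was -0.31, and by plate side 7 and 8 of 10 were lower. The rho with Nanog over the 90 cells was above 0 for 5 of the 10. The summed level of the list was 550 to 3885 CPM in Nanog-high cells (median 1097.5) and 610 to 3680 in Nanog-low cells (median 1205), so the groups overlapped over nearly their whole range. Eda2r, a death receptor, was at -0.61 (-1.28 and -0.09 by plate side, rho 0.00), and Ccng1, cyclin G1, at -0.39. Cdkn1a (p21), the cell cycle inhibitor, was at -0.22, and the higher ones were Trp53inp1 at 0.35 and Aen at 0.08.

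Mdm2, the ubiquitin ligase that p53 induces and that degrades p53, was the clearest of them. It ranged from 0 to 255 CPM (median 52.5) in Nanog-high cells and from 0 to 655 (median 105) in Nanog-low cells, with means of 72.7 ± 64.9 and 177.7 ± 164.2 (SD, n = 30). The middle cells, with a mean of 153.7 ± 116.8, lay near the Nanog-low cells. Only 8 of 30 Nanog-high cells lay above the Nanog-low median, although the ranges overlapped. The log2 ratio was -1.18, with -1.55 and -0.82 by plate side, from -1.30 to -1.05 with any 1 cell left out, and -1.22 without the pair that stood apart. The summed reads, 436 against 1066, gave a ratio of 0.409 (95% counting interval 0.365 to 0.458), and the rho with Nanog was -0.30.

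**Figure D4:**
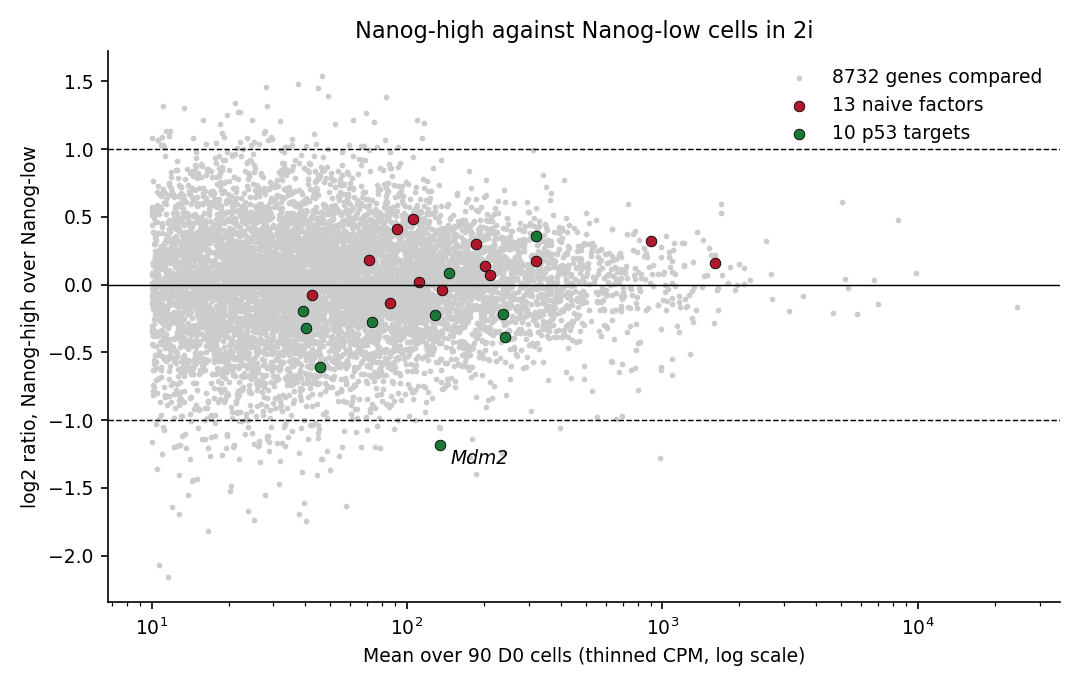
Log2 ratio of Nanog-high over Nanog-low cells for 8732 genes against their mean level (thinned CPM, log axis), with 2-fold limits dashed. The 13 naive factors lie between -0.13 and 0.48, and Mdm2, at -1.18, is the 1 p53 target past the lower limit.

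Cell cycle, stress and metabolic genes showed small shifts. The counts below stand against 51.3% of all genes higher, or 49.6% without the pair that stood apart. Of 41 S phase genes 25 were higher (median 0.07), 21 without the pair, and by plate side 19 and 29. Of 54 G2 and M phase genes 20 were higher (median -0.14), 21 without the pair, and 26 and 19 by plate side, with none 2-fold in either list. Top2a, the topoisomerase of mitotic chromosomes, had means of 703.0 and 1095.8 CPM (-0.63), and Dlgap5, a spindle protein, 56 and 31.7 (0.66). Among stress genes 3 of 9 were higher (2 without the pair, and 3 and 2 by plate side). The metallothioneins Mt1 and Mt2 were at -0.61 and -0.51, but at -0.12 and -0.08 without the pair. Among glycolytic genes 10 of 16 were higher, but 8 of 16 without the pair, and 12 and 5 by plate side. Tpi1 was at 0.40, Ldha at 0.37 and the transporter Slc2a1 at -0.60 (-0.14 and -1.26 by plate side). Of 3 MYC family genes compared, 2 were higher (1 without the pair, and 3 and 1 by plate side), and Mycn was at 0.07.

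The largest differences among well-detected genes came from genes outside these lists. Such a gene had a mean of at least 20 CPM and reads in at least 50% of D0 cells. It also had the same direction on both plate sides, with the middle cells between. These last limits removed few genes past 2-fold, since 35 of 37 higher and 47 of 54 lower ones met them. The genes were picked by their values in these cells, so the values below are descriptions. Mtmr7, a phosphoinositide phosphatase, ranged from 0 to 240 CPM (median 62.5) in Nanog-high and 0 to 145 (median 12.5) in Nanog-low cells, and 26 of 30 Nanog-high cells lay above the Nanog-low median. Slc35a4, a nucleotide sugar transporter family member, had medians of 80 and 15 CPM and Klhl13, a ubiquitin ligase adaptor, of 127.5 and 35. Their log2 ratios were 1.18, 1.27 and 1.22, each past 2-fold with any 1 cell left out. Phgdh, the first enzyme of serine synthesis, had medians of 95 and 0 CPM (1.20), with reads in 24 and 11 cells. The widest ratio was that of Gsto1, a glutathione transferase, at 1.54, of which 1 Nanog-high cell with 1150 CPM carried a large part, since it was 0.88 without that cell. Others were Etfrf1 (1.48), Anxa2 (1.45), Syt9 (1.32), Chpt1 (1.21), Nfya (1.21) and Ptges (1.13). Nfya was at 1.95 and 0.51 and Ptges at 1.58 and 0.46 by plate side, and both were just under 2-fold without 1 Nanog-high cell (0.999 and 0.949).

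The largest differences downward rested more often on single cells. Dcxr, a sugar reductase, was at -1.61, but at -0.998 without the cell that held no Nanog read, in which it reached 870 CPM. That cell also carried Ccdc138 (-1.38, and -0.50 without it), Vcl (-1.26 and -0.65), Wasf3 (-1.31 and -0.82) and Tyw5 (-1.36 and -0.997). Rpl22l1, a ribosomal protein paralog, was at -1.24 with 4900 CPM in the other cell that stood apart, at -0.47 without that cell and at 0.01 without the pair. Zfp995 went from -1.29 to -0.55 without 1 Nanog-low cell.

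Cd38, Sdc4 and Dazl stayed past 2-fold with any 1 cell left out. Cd38, an NAD-consuming surface enzyme, had medians of 7.5 CPM in Nanog-high and 50 in Nanog-low cells, and only 3 of 30 Nanog-high cells lay above the Nanog-low median. Its log2 ratio was -1.40 (-1.20 and -1.58 by plate side). Sdc4, a heparan sulfate proteoglycan, ranged from 0 to 690 CPM (median 72.5) against 0 to 1025 (median 140), a ratio of -1.27, with 5 of 30 Nanog-high cells above that median. Dazl, an RNA-binding protein of germ cells, was at -1.40 (-1.04 without 1 Nanog-low cell with 1865 CPM, and -0.90 without both cells rich in Hprt and Y-linked reads) with a rho of -0.01 with Nanog, and Jmy, an actin nucleator and p53 cofactor, was at -1.30 (-0.95 without 1 cell).

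The genes whose levels followed Nanog most closely over the 90 cells did so weakly. By Spearman's rho they were Tpm3 (0.42), a tropomyosin, Ccnc (0.42), the cyclin of the Mediator kinase module, Taldo1 (0.41), of the pentose phosphate pathway, Lrrc59 (0.40) and Uso1 (0.39). Tpm3 ranged from 210 to 1045 CPM (median 612.5) in Nanog-high and from 0 to 1035 (median 455) in Nanog-low cells. For Ccnc, with medians of 147.5 and 60 CPM, 27 of 30 Nanog-high cells lay above the Nanog-low median. At the other end were Jak3 (-0.36), a cytokine receptor kinase, Snhg1 (-0.32), a small nucleolar RNA host gene, Wasf3 (-0.31), Rfx7 (-0.31) and Hnrnpul2 (-0.31). Jak3 had medians of 45 and 77.5 CPM and a log2 ratio of -1.04, and Snhg1 of 147.5 and 215 CPM and a ratio of -0.83. These are the extremes of a range over all genes whose 5th and 95th percentiles were -0.16 and 0.22, the cells share 1 plate, and in sparse counts such values are no more than a description.

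The same ranking of the cells in serum, by CPM of the deposited counts, gave a different spread of Nanog. In D1 the 16 cells with the most Nanog held 32.5 to 711 CPM and the 16 with the least 0 to 1.04, and in D2 the 31 and 31 cells held 292 to 2019 and 0 to 9.64 CPM. The bottom groups there were thus almost without Nanog, unlike the D0 cells. At least 2-fold higher in the top group were 3.22% of 7952 genes compared in D1 and 12.4% of 7998 in D2. At least 2-fold lower were 2.63% and 12.7%. Such shares also move with group size: in D0, plate columns 1 to 6 alone, with 16 and 14 cells, gave 3.23% and 3.5%. D2 cells held fewer genes after thinning, with a median of 3871 in the top group and 3795 in the bottom group.

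In D1 12 of 13 naive factors were higher in the top group, against 57.1% of all genes, and 7 of them at least 2-fold. The median log2 ratio was 1.10 (0.77 to 1.20 with any 1 cell left out). Tfcp2l1 had means of 107.5 ± 104.9 and 26.9 ± 27 CPM (SD, n = 16), a ratio of 1.67, Zfp42 of 571.6 ± 334.7 and 227.2 ± 111.6 (1.29), and Tbx3, a T-box factor, of 40.3 ± 58.3 and 1.56 ± 5.07 (2.12). The exception was Dppa3, at -1.04. In D2 6 of 12 were higher, against 46.9% of all genes, with a median of 0.01 (-0.03 to 0.13 with any 1 cell left out), and Zfp42 was at 0.82, Esrrb at -0.75 and Dppa3 at -2.22. Beside the D0 median of 0.16, the D1 value is the largest of the 3, but differences between labels were not tested.

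The median of the p53 targets lay below 0 in all 3 labels, with 2 targets higher in each. In D1 10 of 12 were lower in the top group, against 42.1% of all genes, with a median of -0.60, and Mdm2 had means of 86.2 ± 87.2 and 340.3 ± 688.6 CPM (-1.86). In D2 9 of 11 were lower, against 52.8% of all genes, with a median of -0.42, which was -0.15 without 1 cell of the bottom group, with Mdm2 at -0.42 and Cdkn1a at -1.59. Trp53inp1, higher in D0, was at -1.50 in D1 and -0.85 in D2. The rho of Mdm2 with Nanog was -0.27 over the 50 D1 cells and -0.04 over the 93 D2 cells. The D1 cells differed from the others in a further respect: 48 of 50 held reads of Hprt and 48 of Y-linked genes, against 9 and 3 of 90 D0 cells and 7 and 5 of 93 D2 cells. The 2 D1 cells without Hprt reads were those with the most Nanog. With both left out and the groups formed again, 11 of 13 naive factors were higher (median 1.02) and 12 of 12 p53 targets lower (median -0.46), and the part of this difference in the D1 values was not tested. E14 lines are known to include Hprt-deficient ones, so whether the D1 cells are of the same line as the others is uncertain, and line and label cannot be told apart.

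**Figure D5:**
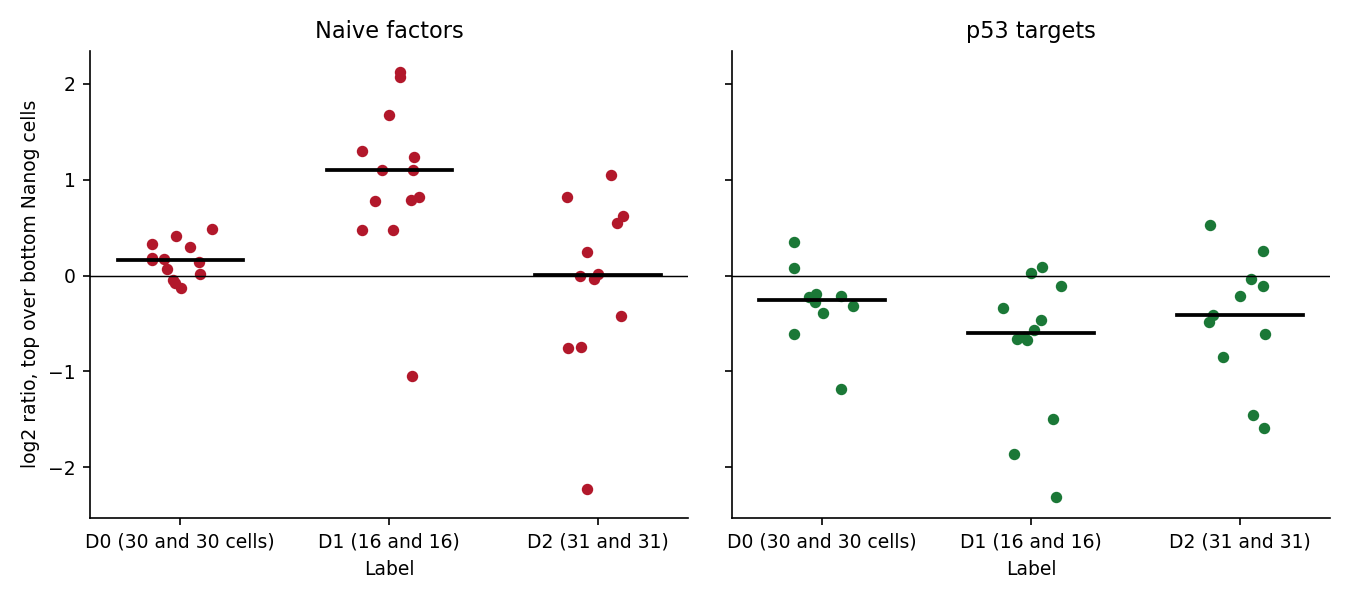
Log2 ratio of the cells with the most over those with the least Nanog for each naive factor (left) and p53 target (right) compared in D0, D1 and D2, with the median as a bar. The naive factors have medians of 0.16, 1.10 and 0.01, and the p53 targets of -0.25, -0.60 and -0.42.

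Of the 12 genes with the largest differences upward in D0, 8 had values in D1 and 5 of those were higher there (57.1% of all genes were), and 3 of 10 were higher in D2 (46.9%). Of the 12 downward, 5 of 10 were lower in D1 (42.1%) and 6 of 10 in D2 (52.8%).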

How the data were processed

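Single-cell RNA from scNMT-seq was sequenced as paired 75-base reads, and the authors aligned them with HISAT2 to GRCm38 (per the labels). The counting tool and annotation were not given in the sources used here. The authors deposited counts per gene and well, which are whole and not normalized. Of the nonzero D0 counts 78.2% were even, so mates were probably counted one by one. No molecular identifiers were used. A cell was kept if its reads exceeded 200000, its detected genes 2000, and its mitochondrial share stayed below 0.15 of all reads. This is how the study's filter was read, although the study prints the mitochondrial limit as 0.15%. It reports fewer kept cells than the 233 that passed here, so the set of cells is not the same. Cells were ranked by Nanog CPM of the deposited counts, thinned once to 200000 reads at random (numpy 2.4.6), and compared as described, with 23 gene lists (333 genes). Named genes were the 12 widest in each direction and the 5 highest and lowest by rho among named protein or RNA genes past the limits stated, of which 2 are not reported here. The members, lists and rules were chosen with earlier results of these data known. The comparison was tried only on counts simulated from a shared mean profile, without variation between cells beyond counting and depth. How it performs with such variation was not tested. TMM factors came from edgeR 4.0.16 in R 4.3.3. Genes not matched to the table, and 1 gene split over rows, were left out. No doublet caller was run, since single cells were sorted into wells. The alternatives tried are given in the closing section.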

Additional observations from a re-analysis of the deposited data

How the results depend on the processing

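The number of genes past 2-fold depended on the pseudocount, the summary over cells and the size of the groups. Against 64 at least 2-fold higher and 114 at least 2-fold lower genes, a pseudocount of 1 CPM gave 252 and 311, and one of 50 CPM 0 and 5. The difference of mean log2 values gave 41 and 13, and reads summed over cells 162 and 261. The top 20 against the bottom 20 cells gave 132 and 245, and the top 45 against the bottom 45 gave 23 and 32. Plate columns 1 to 6 alone gave 282 and 306, and columns 7 to 12 alone 194 and 336, from fewer cells. With any 1 cell left out the counts were 56 to 74 and 100 to 125. Under the remaining settings both counts stayed within 1.5 times: another seed, no thinning, thinning to 500000 reads, no filter on low values, TMM, totals without mitochondrial genes and the 50 most abundant genes, ranking by thinned Nanog reads, other limits on cells, and leaving out the cells closer to D1 or D2, those with Hprt or Y-linked reads, or (chosen after seeing the data) the cell with no Nanog read.

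The median of the naive factors stayed above 0 under all 22 settings, from 0.01 to 0.26, and that of the p53 targets below 0, from -0.31 to -0.17. Of 5566 values of named and listed genes, 118 moved by over 1.5-fold. Of the 253 genes 127 changed sign under at least 1 setting, but of the 30 past 2-fold only Rpl22l1 did, at 0.011 without the cells closer to D1 or D2. Id2 went from -0.83 to 0.95 for the top 20 against the bottom 20 cells. Klf4 kept its sign under 16 of 22 settings and Esrrb under 18. The difference in median detected genes, 216.5 in favour of the Nanog-high cells, did not keep its sign. It was -258 in columns 1 to 6, 479 in columns 7 to 12 and -264.5 for the top 20 against the bottom 20 cells. No paired analysis was possible because the labels mark no more than 1 D0 culture and the groups share no replicate numbers. At 200000 reads 1 read is worth 5 CPM, which limits the precision of the low genes most.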
